A study of Homo sapiens with 6 samples.

Results

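Interferon-stimulated genes are the genes that a cell turns on when interferon, a secreted signal of viral infection, reaches it. A set of 44 such genes was taken by Entrez Gene ID from a table of 18795 genes measured by RNA sequencing in sorted breast cancer cells. All 44 were found in the table. Of these, 43 had a mean of at least 1 FPKM and entered the tests and medians, among 12454 genes of the table that did. EPSTI1 was the member left out of the tests. FPKM scales a fragment count to transcript length and library size, so that levels of different genes are compared here per length. The genes were listed for their known response to interferon, with earlier results of these data known.

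The libraries came from HCC70 and MDA-MB-468, 2 human lines of triple-negative, basal-like breast cancer. HCC70 was grown in RPMI medium and MDA-MB-468 in Leibovitz L15 medium, both with serum, and only the latter medium is described with penicillin and streptomycin. The labels name no added interferon and no other agent. Cells of each line were fixed in methanol, stained and sorted by keratin 18, keratin 14 and vimentin into 3 populations, K18+, K18+K14+ and K18+Vim+, named for the antigens each was positive for. Each line gave 1 library per population, which makes 6 libraries, 3 per line and 2 per population. The line and its medium cannot be told apart. The labels do not say whether the sorts came from separate cultures, so the p-values measure only the spread between these libraries. Below, 6 values of a gene are given as HCC70 and then MDA-MB-468, each in the order K18+, K18+K14+, K18+Vim+.

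Type I interferons bind the receptor pair IFNAR1 and IFNAR2, whose kinases JAK1 and TYK2 phosphorylate STAT proteins. STAT2 joins IRF9 in a complex called ISGF3, which binds the interferon-stimulated response element in the promoters of target genes. The products sense foreign nucleic acid, block viral entry, translation or replication, or feed back on the pathway, and some tumour cell lines hold part of the set at a standing level without added interferon.

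The core letters of that element, GAAANNGAAA, were searched on both strands from 250 bases before to 50 bases after each RefSeq gene start (GRCh38.p14, whereas the reads were aligned to GRCh37). A window was at hand for 35 of the 44 members, and 24 of these (68.6%) held at least 1 match, against 1195 of 27305 genes (4.38%). TTCNNNGAA, the core of the gamma-activated site, was in 10 of the 35 windows (28.6%) and in 9.38% of all. Matches to the 2 motifs overlapped in BST2, EPSTI1, IFI27, IFITM1 and MX1. A match is a description of letters, not of binding. The stretches below are the 180 bases before the start for members whose levels the later comparisons turn on: 5 that were far lower in MDA-MB-468, ISG15 as a classical target of ISGF3, and LGALS3BP as the member that was higher there. They read 5′ to 3′ along the gene's strand, with matches to GAAANNGAAA or its reverse complement in capitals. A single capital run longer than 10 letters holds overlapping matches. Every stretch printed holds a match, whereas 11 tested members with a window had none, among them IFI16 and XAF1, also lower in MDA-MB-468.

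IFI27: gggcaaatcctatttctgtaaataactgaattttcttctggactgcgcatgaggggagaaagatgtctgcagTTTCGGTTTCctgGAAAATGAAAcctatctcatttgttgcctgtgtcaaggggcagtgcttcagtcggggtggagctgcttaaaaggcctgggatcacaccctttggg
IFI6: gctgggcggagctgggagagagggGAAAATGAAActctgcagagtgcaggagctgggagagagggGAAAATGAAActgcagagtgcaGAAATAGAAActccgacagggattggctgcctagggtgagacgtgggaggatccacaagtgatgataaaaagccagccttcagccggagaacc
BST2: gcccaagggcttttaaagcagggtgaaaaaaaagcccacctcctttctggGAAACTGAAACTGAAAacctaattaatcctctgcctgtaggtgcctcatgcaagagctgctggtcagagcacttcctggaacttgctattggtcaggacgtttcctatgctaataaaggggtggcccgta
IFI44L: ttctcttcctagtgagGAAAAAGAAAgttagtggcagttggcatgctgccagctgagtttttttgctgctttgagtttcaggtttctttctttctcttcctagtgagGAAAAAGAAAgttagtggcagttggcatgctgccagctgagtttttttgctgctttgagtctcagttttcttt
IFIT1: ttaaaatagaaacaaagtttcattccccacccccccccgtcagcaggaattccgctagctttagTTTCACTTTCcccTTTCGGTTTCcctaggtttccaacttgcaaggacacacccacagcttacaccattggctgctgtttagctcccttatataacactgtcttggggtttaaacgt
ISG15: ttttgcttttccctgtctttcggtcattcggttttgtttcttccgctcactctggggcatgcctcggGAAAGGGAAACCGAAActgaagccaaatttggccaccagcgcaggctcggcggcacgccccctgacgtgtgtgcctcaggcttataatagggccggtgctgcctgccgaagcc
LGALS3BP: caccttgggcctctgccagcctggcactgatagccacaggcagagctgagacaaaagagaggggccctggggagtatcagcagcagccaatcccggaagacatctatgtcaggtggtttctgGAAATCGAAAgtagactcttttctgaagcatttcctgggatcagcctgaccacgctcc

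The positions were chr14:94110556-94110735 on the plus strand for IFI27, chr1:27672193-27672372 on the minus strand for IFI6, chr19:17405631-17405810 on the minus strand for BST2, and chr1:78620268-78620447 on the plus strand for IFI44L. For IFIT1, ISG15 and LGALS3BP they were chr10:89392443-89392622 (plus), chr1:1013317-1013496 (plus) and chr17:78979924-78980103 (minus). IFI27 held a match on each strand, beginning 108 and 95 bases before the start (positions -108 and -95). IFI6 held 3 matches, and BST2 and ISG15 each held 2 that overlapped. DTX3L and PARP9 lie head to head. Between the DTX3L start and 1 of the 2 RefSeq starts of PARP9 lie 37 bases, and the same match stood in a window of each gene. That stretch, chr3:122564322-122564351 on the plus strand, is shown because both genes share it.

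DTX3L-PARP9: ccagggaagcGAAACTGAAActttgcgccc

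The line labels were read against genes known to differ between the lines before any comparison. SMAD4 and RB1 are known to be lost in MDA-MB-468, which also carries extra copies of EGFR. SMAD4 stood at 13.7, 7.90 and 7.01 FPKM in HCC70, against 0.566, 0.310 and 5.19 FPKM in MDA-MB-468. RB1 stood at 2.24, 1.43 and 2.04 FPKM against 0.307, 0.269 and 6.68 FPKM, and EGFR at 23.3, 17.9 and 11.2 FPKM against 153, 70.7 and 10.4 FPKM. The MDA-MB-468 library labelled K18+Vim+ thus goes against its line label in all 3 genes, and which cells it holds was not tested. VIM, the gene of the antigen it was sorted for, reached 259 FPKM there, whereas the other MDA-MB-468 libraries had 12.2 and 13.3 FPKM. For the line comparison, counts over all members tested are given with and without it. So are the members' line differences that it moved by over 1.5 times as a fold of FPKM + 1. Counts by role, by motif and of pathway genes include it throughout. The 10 epithelial markers summed to 250 FPKM in that library and to between 2355 and 3849 FPKM in the other 5. Fibroblast and endothelial markers summed to between 4.39 and 10.1 FPKM over the 6 libraries. Immune cell markers summed to between 9.71 and 145 FPKM over the 10 genes. CD14 gave the largest part in 5 libraries, at 90.0, 138 and 51.4 FPKM in HCC70 against 28.3, 50.7 and 2.44 FPKM in MDA-MB-468, where the last library held more NCAM1. CD68 stood at 6.61, 5.82 and 5.82 FPKM against 0.116, 0.1 and 0.566 FPKM, and NCAM1 at 0.319, 0.389 and 0.117 FPKM against 4.33, 6.12 and 4.21 FPKM, so that both were separated between the lines. PTPRC lay between 0.248 and 1.41 FPKM, and CD3D was listed at the floor, 0.1 FPKM, in every library. The part of these markers in the line difference was not tested.

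The 44 genes together took 0.634%, 0.640% and 0.836% of the summed FPKM in HCC70 and 0.106%, 0.0929% and 0.0494% in MDA-MB-468. All 3 HCC70 libraries lay above all 3 MDA-MB-468 libraries in this share. Without IFI27, the member with the highest mean, the shares were 0.498%, 0.449% and 0.589% against 0.105%, 0.0928% and 0.0478%. No member stood under 1 FPKM in an HCC70 library, whereas 14, 16 and 20 members did in the MDA-MB-468 libraries. Among members tested, DDX58, IFI16, IFI44L, IFIT2, OAS2, OASL, CMPK2 and SAMD9L stood under 1 FPKM in every MDA-MB-468 library. HERC6, IFIT1, IFIT3, RSAD2, SAMD9 and XAF1 did not in every one, but also averaged under 1 FPKM over the MDA-MB-468 libraries. All of these passed the filter on mean FPKM only through HCC70, and they enter the counts and medians below. All but OAS2, HERC6 and SAMD9 are among the members called lower with every library in the fit. Their calls thus rest on the group that let them in, and no count was made without them. Above 100 FPKM stood 9 members in each HCC70 library and 2, 3 and 0 in MDA-MB-468. In bulk libraries such as these, fewer expressing cells and less RNA per cell cannot be told apart.

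**Figure D1:**
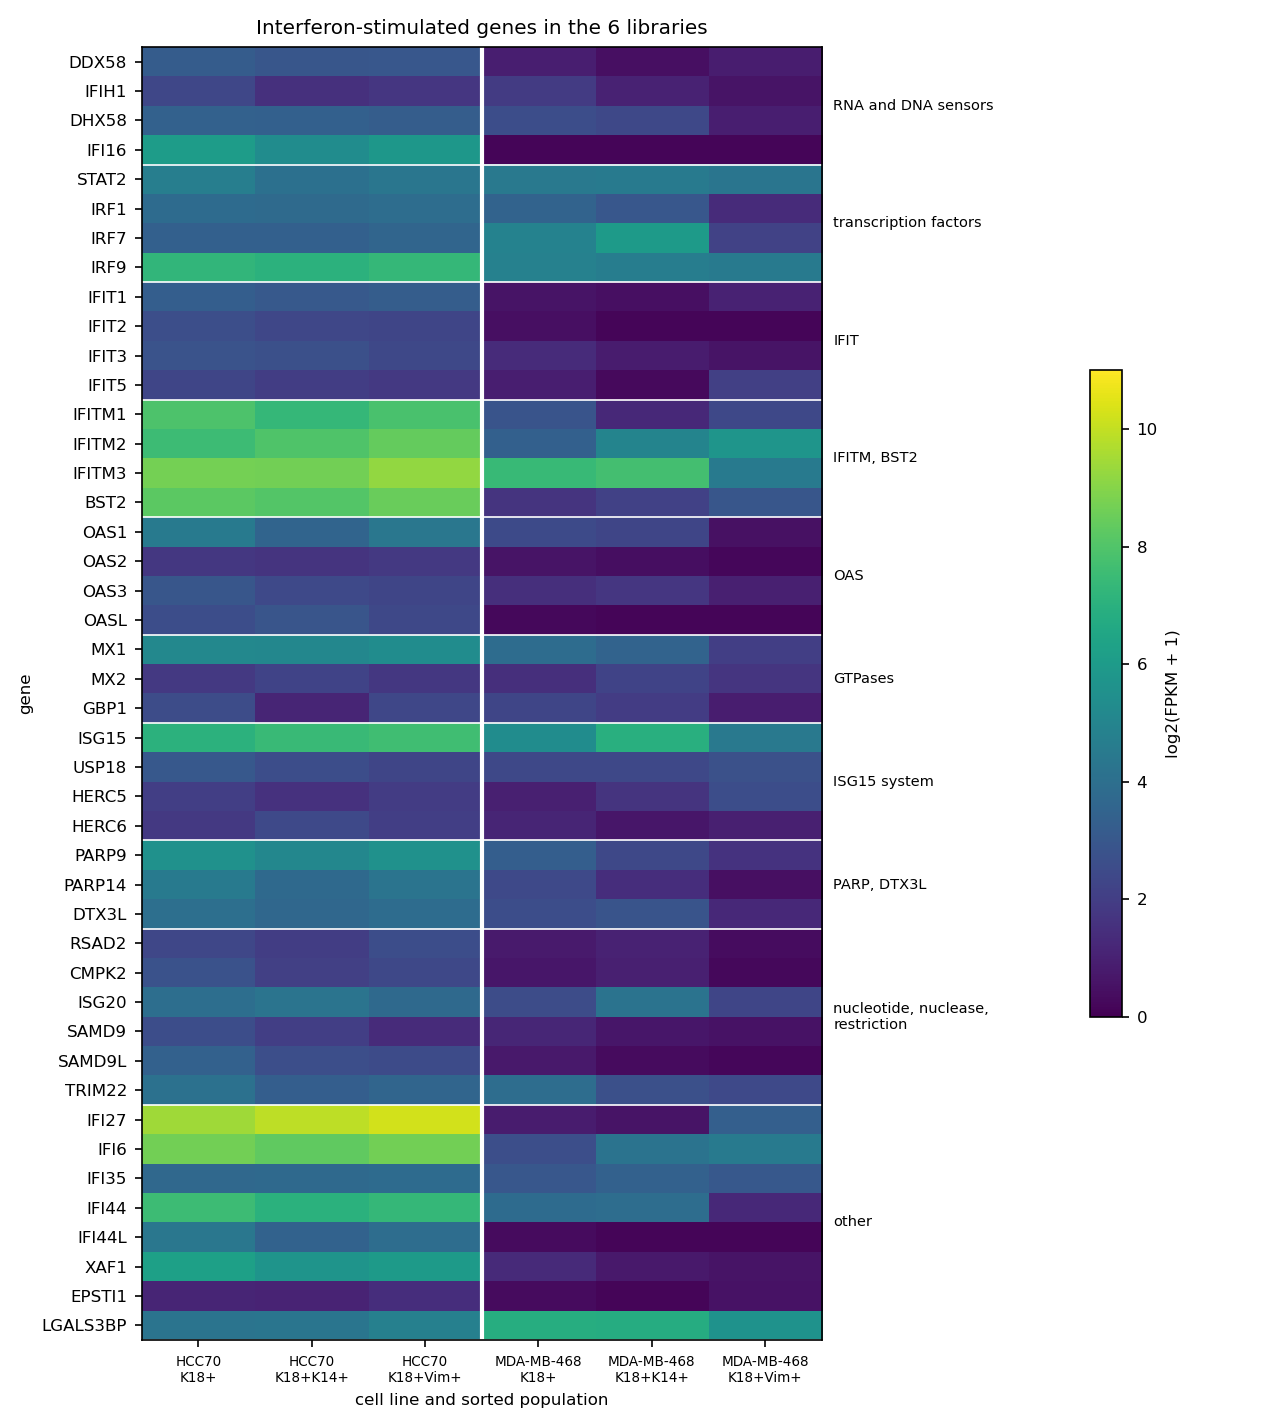
Level of the 44 interferon-stimulated genes (vertical axis, by role) in the 6 libraries (horizontal axis), as colour on the log2(FPKM + 1) scale. The 3 HCC70 columns on the left are brighter for most genes, up to 1210 FPKM for IFI27, and LGALS3BP in the lowest row is brighter in the MDA-MB-468 columns.

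The first comparison asked how the set differs between the lines. Of the 43 members tested, 22 were lower in MDA-MB-468 and 1, LGALS3BP, was higher by limma at an adjusted p under 0.05. Of all 12454 genes tested, 7.68% were lower and 4.54% higher by the same rule, 12.2% in either direction. The median of the members' fitted differences, MDA-MB-468 minus HCC70 on the log2(FPKM + 1) scale, was -1.81, against 0.01 over all genes tested. That scale understates the difference of low genes. For 32 members every MDA-MB-468 library lay under every HCC70 library, a pattern shown by 21% of all genes, and for 1 member every one lay above, as for 20.1% of all genes. Within the populations the member median was -1.46 between the K18+ libraries, -1.37 between the K18+K14+ libraries and -2.25 between the K18+Vim+ libraries, and 35 members were lower in all 3 pairs against 28.5% of all genes. Without the MDA-MB-468 library labelled K18+Vim+ 33 members were separated downwards and 2 upwards (28% of all genes each way), and 37 were lower in both remaining pairs (40.5%).

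Leaving out the MDA-MB-468 library labelled K18+Vim+ gave 30 members past the threshold, 28 lower and 2 higher, among them all 23 of the fit with every library. In that fit 28.7% of all genes passed, 16.3% lower and 12.4% higher. The 7 members that passed in it but not with all libraries were DTX3L, HERC6, IFIT5, OAS2, OAS3 and SAMD9, which were lower, and IRF7, which was higher by 2.07 (limma adjusted p = 0.00328). Some differences moved by over 1.5 times without that library, as a fold of FPKM + 1 and not in log2 units. Those of IFI44 (then -3.39), OAS1 (-1.66), MX1 (-1.40) and IFI27 (-8.96) passed in both fits. ISG15 at -1.13 and IRF1 at -0.58 passed in neither, and the values of IFITM3, IRF7 and LGALS3BP stand beside the genes or above. Just under that limit, GBP1 changed sign, from -0.30 to 0.28, and passed in neither. IFIT5, also just under it, went from -0.93 to -1.52. In a fit with population and line as terms, a left-out library also takes the other library of its population out of the line difference. Such a fit rests on 2 pairs of libraries and leaves fewer residual degrees of freedom, so its calls rest on less data. Without the HCC70 K18+Vim+ library 30 members passed as well, with 27% of all genes. Without the HCC70 or MDA-MB-468 K18+ library 9 and 11 passed, with 1.65% and 1.94% of all genes. Without the HCC70 or MDA-MB-468 K18+K14+ library 13 and 15 passed, with 2.31% and 2.62%. The member median relative to all genes lay between -2.19 and -1.36 over these 6 fits.

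**Figure D2:**
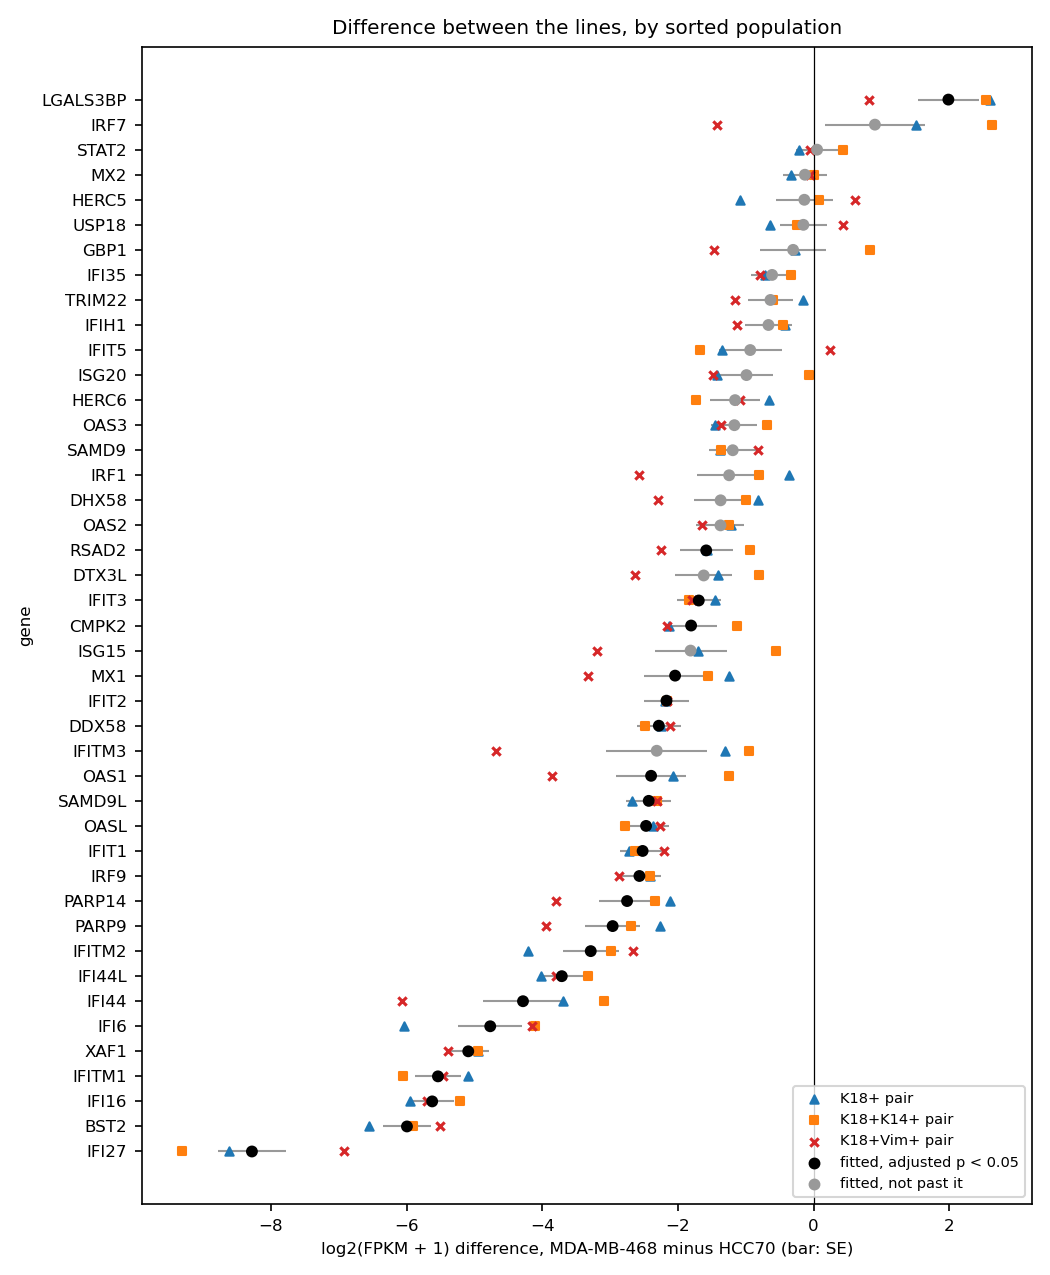
Difference between the lines, MDA-MB-468 minus HCC70, on the log2(FPKM + 1) scale (horizontal axis) for the 43 genes tested (vertical axis). Coloured symbols are the pairs of libraries of 1 population, circles the fitted difference with its SE as a bar, black where the limma adjusted p is under 0.05; the points run from IFI27 at -8.28 to LGALS3BP at 1.99, and the K18+Vim+ pair of IRF7 lies on the other side of 0 from its other pairs.

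On the log2(FPKM + 1) scale the widest fitted differences were those of IFI27, BST2, IFI16, IFITM1 and XAF1. IFI27, a small mitochondrial protein, stood at 692, 946 and 1210 FPKM in HCC70, against 0.769, 0.491 and 9.00 FPKM in MDA-MB-468. It had the highest level of all members in each HCC70 library and stood under 10 FPKM in each MDA-MB-468 library. The fitted log2 difference was -8.28 ± 0.50 (SE, n = 3 libraries per line, limma adjusted p = 0.00144).

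IFI6, which acts against apoptosis and against flavivirus replication, stood at 405, 319 and 399 FPKM against 5.15, 17.5 and 21.6 FPKM. The lines did not overlap, with a log2 difference of -4.77 ± 0.47 (limma adjusted p = 0.00555). XAF1, an antagonist of the apoptosis inhibitor XIAP, stood at 74.2, 51.4 and 62.6 FPKM against 1.45, 0.703 and 0.517 FPKM. Its difference was -5.09 ± 0.31 (limma adjusted p = 0.00144), and no match to either motif was found in its windows. IFI44 and IFI44L are neighbours on the same strand. IFI44 stood at 184, 128 and 159 FPKM against 13.3, 14.1 and 1.38 FPKM, and IFI44L at 19.4, 10.0 and 14.4 FPKM against 0.262, 0.1 and 0.106 FPKM. Both were lower in MDA-MB-468, by log2 differences of -4.29 ± 0.59 (limma adjusted p = 0.0141) and -3.71 ± 0.33 (limma adjusted p = 0.00456), and the 0.1 is the floor of the table. The size for IFI44L rests on the pseudocount and was -5.85 with 0.1 and -1.9 with 5. IFI35 lay between 12 and 13.3 FPKM in HCC70 and between 6.91 and 9.77 FPKM in MDA-MB-468 (limma adjusted p = 0.212). EPSTI1, not tested, stood at 1.20, 1.12 and 1.69 FPKM against 0.252, 0.1 and 0.458 FPKM.

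LGALS3BP went the other way. It encodes a secreted glycoprotein that binds galectins and is abundant in many carcinomas. It stood at 18.0, 18.4 and 26.7 FPKM in HCC70, against 114, 112 and 47.8 FPKM in MDA-MB-468. Every MDA-MB-468 library lay above every HCC70 library, and the fitted log2 difference was 1.99 ± 0.45 (limma adjusted p = 0.0394). Without the MDA-MB-468 library labelled K18+Vim+ it was 2.57 ± 0.35 (limma adjusted p = 0.00066). Its upstream stretch, printed above, holds 1 match to GAAANNGAAA.

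The genes that restrict viral entry and release held differences of similar size. BST2, or tetherin, holds budding virions at the cell surface. It stood at 297, 266 and 355 FPKM in HCC70, against 2.16, 3.43 and 6.78 FPKM in MDA-MB-468, a log2 difference of -6.00 ± 0.35 (limma adjusted p = 0.00144). The 3 IFITM genes, which encode membrane proteins that hinder fusion of virus with endosomes, lie next to each other. IFITM1 stood at 244, 161 and 226 FPKM against 6.16, 1.43 and 4.15 FPKM, a difference of -5.54 ± 0.34 (limma adjusted p = 0.00146). IFITM2 stood at 188, 250 and 341 FPKM against 9.23, 30.6 and 52.9 FPKM, a difference of -3.29 ± 0.41 (limma adjusted p = 0.0115). Neither gene's lines overlapped. IFITM3 stood at 415, 403 and 585 FPKM against 167, 208 and 21.7 FPKM, so that 2 of the MDA-MB-468 libraries kept high levels. Its lines did not overlap either, but the difference of -2.31 ± 0.74 did not pass the threshold (limma adjusted p = 0.0872), nor did that of -1.12 ± 0.48 without the library labelled K18+Vim+ (limma adjusted p = 0.102). IFITM1, IFITM2 and IFITM3 are related in sequence, to differing degrees, and how reads shared by them were counted is not given in the sources used here.

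Among the sensors of foreign nucleic acid, 2 of 4 were lower in MDA-MB-468. DDX58 encodes RIG-I, which binds viral RNA in the cytoplasm. It stood at 8.07, 6.69 and 6.97 FPKM in HCC70, against 0.905, 0.375 and 0.843 FPKM in MDA-MB-468, and the difference was -2.28 ± 0.32 (limma adjusted p = 0.0148). IFI16, a nuclear DNA sensor, stood at 67.1, 39.8 and 56.4 FPKM in HCC70 and stood at the floor, 0.1 FPKM, in every MDA-MB-468 library. It passed with a limma adjusted p of 0.00144, and no fold is given against the floor. IFIH1 (MDA5) and DHX58 (LGP2) are relatives of RIG-I. IFIH1 lay between 1.85 and 4.05 FPKM in HCC70 and between 0.516 and 2.79 FPKM in MDA-MB-468, overlapping (limma adjusted p = 0.234). DHX58 lay between 8.38 and 9.67 FPKM against 0.912 to 5.03 FPKM and did not overlap (limma adjusted p = 0.0685).

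The 4 transcription factors of the set were split. IRF9, the DNA-binding partner of STAT2, stood at 151, 135 and 162 FPKM in HCC70, against 27.4, 24.5 and 21.2 FPKM in MDA-MB-468. All 3 HCC70 libraries lay above it, and the difference was -2.57 ± 0.32 (limma adjusted p = 0.0116). STAT2 stood at 24.8, 15.7 and 18.9 FPKM against 21.1, 21.5 and 18.2 FPKM, which overlapped, with a difference of 0.05 ± 0.32 (limma adjusted p = 0.922). IRF1 lay between 13.0 and 14.1 FPKM against 10.3, 7.04 and 1.53 FPKM (limma adjusted p = 0.129). IRF7, which drives the later wave of interferon genes, stood at 9.24, 9.33 and 11.1 FPKM in HCC70, against 28.2, 62.7 and 3.50 FPKM in MDA-MB-468. Its K18+ and K18+K14+ libraries lay above HCC70 and the library labelled K18+Vim+ below it. Over all libraries the IRF7 difference was 0.90 ± 0.73 (limma adjusted p = 0.417), and without that library it passed, as given above.

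The IFIT proteins bind viral RNA that lacks the host cap and hinder its translation. IFIT1 stood at 8.74, 7.33 and 8.61 FPKM against 0.474, 0.348 and 1.08 FPKM, a difference of -2.52 ± 0.33 (limma adjusted p = 0.012). IFIT2 stood at 5.30, 4.01 and 3.90 FPKM against 0.379, 0.119 and 0.1 FPKM, a difference of -2.17 ± 0.33 (limma adjusted p = 0.0178). IFIT2 has 1 value at the floor, and its difference was -4.02 with a pseudocount of 0.1 and -0.85 with 5. IFIT1 and IFIT2 were separated between the lines, as was IFIT3, which lay between 4.16 and 6.01 FPKM against 0.497 to 1.55 FPKM (difference -1.69 ± 0.33, limma adjusted p = 0.0289). IFIT5 was the exception of the 4 genes. It stood at 3.89, 2.94 and 2.58 FPKM against 0.908, 0.229 and 3.22 FPKM, the last value within the HCC70 range, and its difference of -0.93 ± 0.46 did not pass (limma adjusted p = 0.21).

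The oligoadenylate synthetases make the second messenger that activates RNase L. OASL, a member without that enzyme activity, stood at 5.11, 6.55 and 4.29 FPKM against 0.185, 0.1 and 0.1 FPKM, a difference of -2.47 ± 0.34 (limma adjusted p = 0.0145). Since 2 of its values are at the floor, the size rests on the pseudocount and was -4.57 with 0.1 and -1.0 with 5 in place of 1. OAS1 lay between 10.7 and 22.3 FPKM against 0.413 to 4.55 FPKM, a difference of -2.40 ± 0.52 (limma adjusted p = 0.0361). OAS2 lay between 2.15 and 2.55 FPKM against 0.129 to 0.493 FPKM, and OAS3 between 3.94 and 6.75 FPKM against 0.928 to 2.31 FPKM. All 4 genes were separated between the lines, but the limma adjusted p was 0.054 for OAS2 and 0.0705 for OAS3.

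Of the 3 interferon-induced GTPases, only MX1 passed. MX1 coats the nucleocapsids of incoming viruses and lay between 32.7 and 40.3 FPKM in HCC70 and between 3.13 and 13.9 FPKM in MDA-MB-468, a difference of -2.04 ± 0.47 (limma adjusted p = 0.0404). MX2, its neighbour on the same strand, lay between 2.41 and 3.65 FPKM against 1.83 to 3.68 FPKM (limma adjusted p = 0.805). GBP1, a guanylate-binding protein known best as a target of interferon gamma, stood at 4.91, 1.19 and 4.06 FPKM against 3.89, 2.91 and 0.830 FPKM (limma adjusted p = 0.693). The lines overlapped for both.

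With all libraries none of the 4 genes of the ISG15 system passed between the lines by limma. Of these, 2 (ISG15 and HERC6) had an unadjusted limma p under 0.05, as did 33.05% of all genes tested. HERC6 passed without the MDA-MB-468 library labelled K18+Vim+, as given above. ISG15, a ubiquitin-like modifier, stood at 132, 177 and 196 FPKM in HCC70, against 39.9, 120 and 20.6 FPKM in MDA-MB-468. Again all 3 HCC70 libraries lay above, and the difference was -1.81 ± 0.53 (limma adjusted p = 0.0708). USP18, which removes ISG15 and dampens the receptor, lay between 3.87 and 7.13 FPKM against 4.19 to 5.6 FPKM. HERC5, the ligase that attaches ISG15, stood at 3.17, 2.0 and 2.93 FPKM against 0.958, 2.16 and 4.99 FPKM, and its relative HERC6 lay between 2.5 and 4.31 FPKM against 0.601 to 1.21 FPKM. USP18 and HERC5 overlapped between the lines and HERC6 did not.

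PARP9, PARP14 and DTX3L work in ADP-ribosylation and ubiquitination, and PARP9 and DTX3L form a complex. PARP9 stood at 45.9, 32.7 and 46.4 FPKM against 8.80, 4.21 and 2.09 FPKM, a difference of -2.96 ± 0.41 (limma adjusted p = 0.0141). PARP14 stood at 22, 12.6 and 17.9 FPKM against 4.32, 1.68 and 0.362 FPKM, a difference of -2.75 ± 0.42 (limma adjusted p = 0.0169). DTX3L lay between 11.7 and 15.0 FPKM against 1.42 to 6.27 FPKM, without overlap (limma adjusted p = 0.0541). DTX3L and PARP9 share 217 exonic bases on opposite strands, over all transcripts of an annotation other than the RefSeq one that gave the starts above. Whether strand was used in counting is not given.

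The last role held genes that act on nucleotides or nucleic acid or restrict viruses in other ways. SAMD9L, a growth-restraining antiviral factor, stood at 9.68, 5.24 and 4.64 FPKM against 0.672, 0.265 and 0.133 FPKM, a difference of -2.43 ± 0.33 (limma adjusted p = 0.0141). RSAD2, or viperin, makes a chain-terminating nucleotide and lies beside CMPK2, a mitochondrial nucleotide kinase. CMPK2 lay between 3.23 and 5.93 FPKM against 0.168 to 0.941 FPKM (difference -1.81 ± 0.38, limma adjusted p = 0.0341), and RSAD2 between 3.0 and 5.13 FPKM against 0.288 to 1.10 FPKM (difference -1.58 ± 0.39, limma adjusted p = 0.0481). SAMD9 lay between 1.56 and 5.01 FPKM against 0.446 to 1.30 FPKM and did not pass (limma adjusted p = 0.0706). TRIM22, a ubiquitin ligase, stood at 16, 8.75 and 11 FPKM against 14.2, 5.45 and 4.38 FPKM, and ISG20, an exonuclease, at 14.8, 17.9 and 12.6 FPKM against 4.90, 17.1 and 3.90 FPKM. Both overlapped between the lines and did not pass (limma adjusted p = 0.233 and 0.137).

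Members with and without GAAANNGAAA were set side by side. The median line difference was -1.81 over the 23 tested members that held a match, of which 12 were lower and 1 higher in MDA-MB-468, and -2.28 over the 11 that held none, of which 7 were lower. Members of both kinds thus included genes with wide differences, such as IFI27 with matches and XAF1 without. Of all genes tested, not split by motif, 7.68% were lower and 4.54% higher. Both groups held members that passed the filter on mean FPKM only through HCC70. No test was made of that contrast.

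The pathway upstream of the set was read from a list of 42 other genes, 30 of which were tested. Of the 30, 4 were lower in MDA-MB-468 and 0 were higher with every library in the fit (limma, adjusted p under 0.05). Of all genes tested, 7.68% were lower and 4.54% higher. The median difference of the 30 was -0.23, against 0.01 over all genes. Of the 11 interferon ligands, IFNE alone had a mean above 1 FPKM. Interferon epsilon is a type I interferon of epithelia that line the reproductive tract. IFNE stood at 10.2, 8.68 and 7.53 FPKM in HCC70, against 0.932, 0.147 and 0.665 FPKM in MDA-MB-468, without overlap, and the difference was -2.66 ± 0.34 (limma adjusted p = 0.0116). IFNB1 was highest at 0.200 FPKM and IFNL1 at 0.258 FPKM, both in HCC70 libraries, IFNL3 was highest at 0.117 FPKM, and the other 7 ligands were listed at the floor in all 6 libraries.

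The receptors were measured in both lines. IFNAR1 lay between 8.65 and 10.5 FPKM in HCC70 and between 13.1 and 15.3 FPKM in MDA-MB-468 (limma adjusted p = 0.293), and IFNAR2 between 9.60 and 13.5 FPKM against 16.4 to 21.5 FPKM (limma adjusted p = 0.147). Neither gene overlapped between the lines, and neither difference passed. JAK1, the kinase on IFNAR2, stood at 39.7, 26.1 and 25.1 FPKM against 15.3, 7.16 and 9.43 FPKM and was lower in MDA-MB-468 by a log2 difference of -1.46 ± 0.31 (limma adjusted p = 0.0342). TYK2, the kinase on IFNAR1, stood at 281, 329 and 300 FPKM against 876, 667 and 279 FPKM (limma adjusted p = 0.239). How its reads were counted is not given, so its level is uncertain.

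Further along the pathway, IRF3, the factor that starts interferon production, stood at 188, 251 and 281 FPKM against 224, 400 and 127 FPKM (limma adjusted p = 0.925). It shares 482 exonic bases with BCL2L12 on the opposite strand. DDX60, an antiviral helicase, stood at 7.61, 7.75 and 4.25 FPKM against 1.96, 0.755 and 0.798 FPKM, a difference of -1.80 ± 0.34 (limma adjusted p = 0.0284). UBA7, the enzyme that activates ISG15 for conjugation, stood at 97.1, 85.9 and 87.7 FPKM against 23.8, 25.6 and 2.92 FPKM, a difference of -2.73 ± 0.58 (limma adjusted p = 0.0349). Within the populations the UBA7 difference was -1.99 (K18+), -1.71 (K18+K14+) and -4.5 (K18+Vim+). DDX60 and UBA7 are themselves known interferon targets and were separated between the lines.

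**Figure D3:**
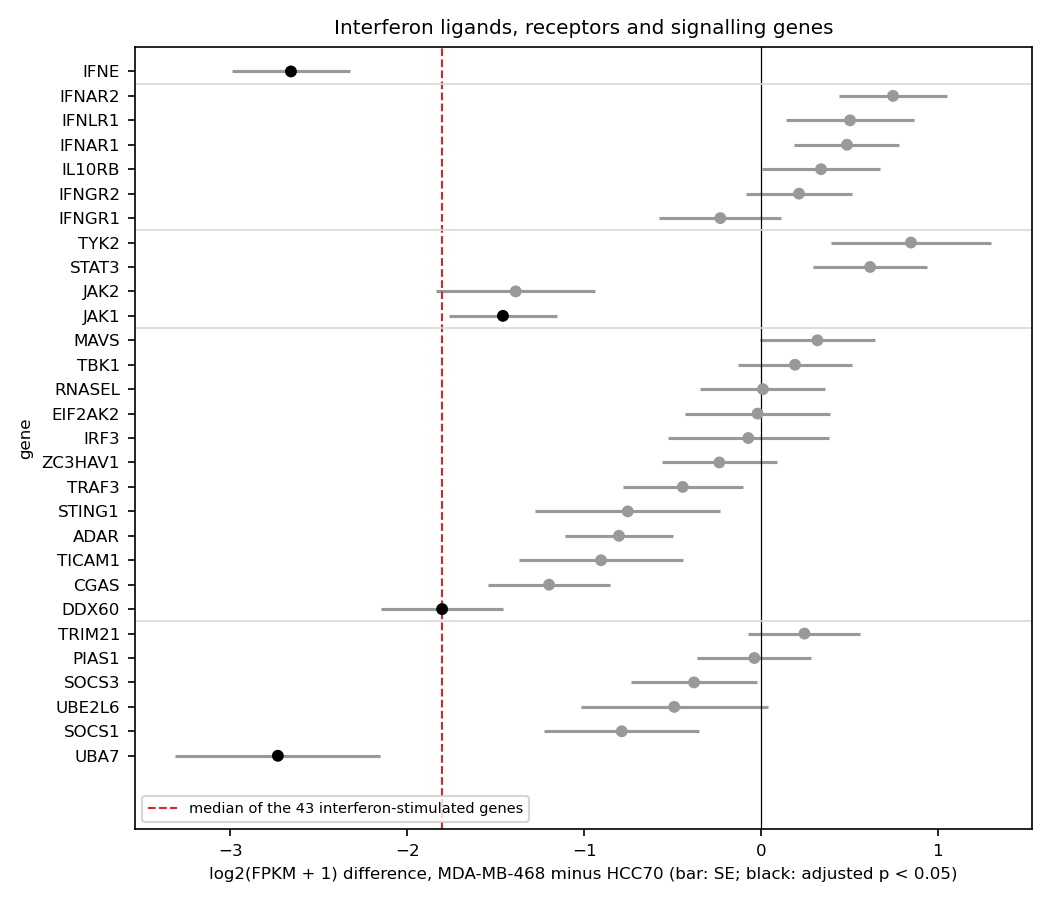
Difference between the lines, MDA-MB-468 minus HCC70, on the log2(FPKM + 1) scale (horizontal axis) for pathway genes tested (vertical axis, grouped as ligand, receptors, kinases and STATs, sensing, and feedback or ISG15 conjugation). Points are fitted differences with SE bars, black where the limma adjusted p is under 0.05; the 4 black points lie between -2.73 and -1.46, and the dashed line is the median of the interferon-stimulated genes, -1.81.

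The populations were compared next, which asks whether cells with keratin 14 or vimentin hold the set at another level. The 3 comparisons share libraries with each other, so each is given by its own values. In no comparison did a member pass by limma. Between K18+K14+ and K18+ cells 0 of 43 members passed, as did 0% of all genes, with 2 members at an unadjusted p under 0.05 and 3.44% of all genes at that level. Between K18+Vim+ and K18+ cells the count was 0, with 3 members at an unadjusted p under 0.05 and 4.27% of all genes. Between K18+Vim+ and K18+K14+ cells it was 0, with 2 members and 5.46% of all genes. The smallest limma adjusted p of a member was 0.855, 0.863 and 0.682 in turn. Without the line as a block 0 members passed in each of the 3 comparisons.

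Between K18+K14+ and K18+ cells the member median was -0.20, against -0.16 over all genes. Lower in both lines were 22 members, against 43.7% of all genes, and higher in both were 6, against 20.2%. The largest fitted differences were those of IFITM2 at 1.02, ISG15 at 1.0 and ISG20 at 0.94, and of IFITM1 at -1.08 ± 0.42 and TRIM22 at -1.02 ± 0.41 (limma adjusted p = 0.855 for IFITM1 and TRIM22). In MDA-MB-468 the pair of libraries differed by 1.63 for IFITM2, 1.57 for ISG15 and 1.62 for ISG20, and in HCC70 by 0.41, 0.43 and 0.26. IFI6 differed by 1.59 in MDA-MB-468 and by -0.35 in HCC70, and GBP1 by -0.32 and -1.43. Across all genes with a known transcript length the difference between these populations had a Spearman correlation with length of -0.326, and over the 43 members of -0.403. The part of length in the members' differences was not tested. The member median relative to all genes was -0.04 over all libraries and 0.18 without the HCC70 K18+K14+ library.

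Between K18+Vim+ and K18+ cells the member median was -0.30, against -0.12 over all genes. It was -0.18 in HCC70, where the median of all genes was -0.16, and -0.44 in MDA-MB-468, where that of all genes was -0.04. Lower in both lines were 21 members (33.9% of all genes) and higher in both 4 (16.5%). IFI27 and IFITM2 had the largest positive differences, 1.65 ± 0.61 and 1.63 ± 0.50 (limma adjusted p = 0.863 for both). IFI27 differed by 0.81 in HCC70 and 2.5 in MDA-MB-468, and IFITM2 by 0.86 and 2.40. At the other end, IFI44 was at -1.40, IRF7 at -1.23, IFITM3 at -1.20 and PARP14 at -1.13, and of these IRF7 and IFITM3 differed by 0.23 and 0.50 in HCC70. Without the MDA-MB-468 library labelled K18+Vim+ the member median relative to all genes was 0.13, against -0.18 with it. Without the HCC70 K18+Vim+ library, when that library alone stands for the population, 10 members passed against K18+ cells, with 12% of all genes, and 8 against K18+K14+ cells, with 16%.

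Between K18+Vim+ and K18+K14+ cells the member median was -0.12, against 0.06 over all genes. Lower in both lines were 8 members (23.7% of all genes) and higher in both 9 (25.6%). In HCC70 31 of the 43 members were higher in the K18+Vim+ library, with a median of 0.25, and in MDA-MB-468 29 were lower in the library labelled K18+Vim+, with a median of -0.25. The medians of all genes were -0.02 and 0.12.

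**Figure D4:**
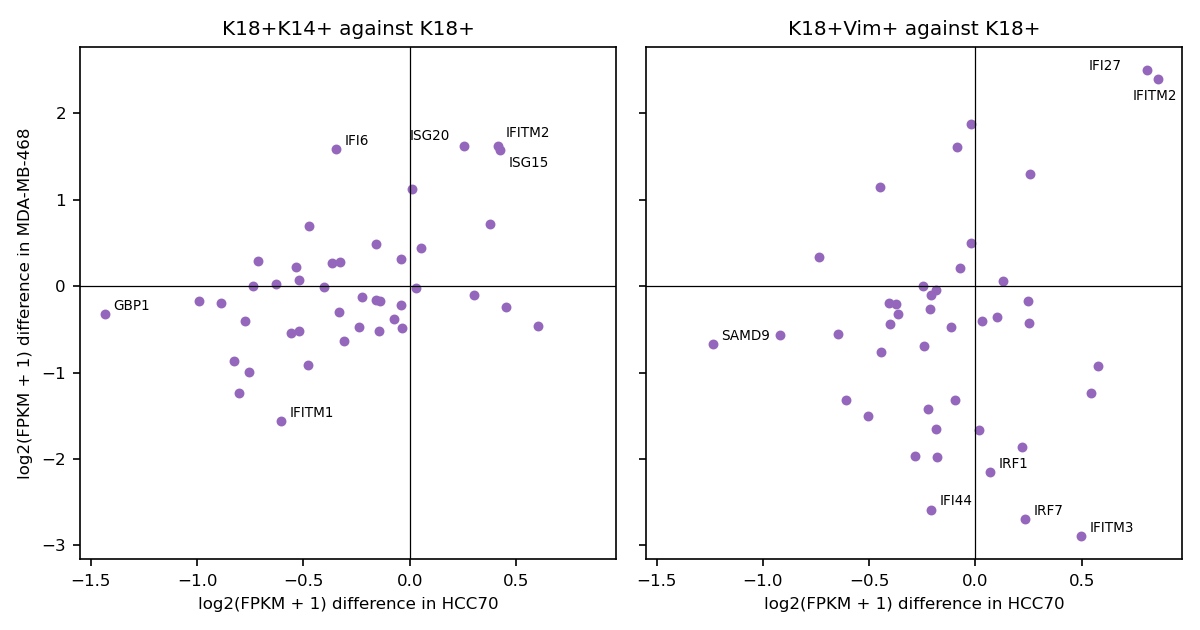
Each point is 1 of the 43 interferon-stimulated genes: its difference between populations in HCC70 (horizontal axis) against that in MDA-MB-468 (vertical axis), on the log2(FPKM + 1) scale, for K18+K14+ against K18+ (left) and K18+Vim+ against K18+ (right). The vertical spread exceeds the horizontal one, most in the right panel, where MDA-MB-468 values run from -2.89 for IFITM3 to 2.5 for IFI27.

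The spread of the set within a line differed accordingly. Over the 3 HCC70 libraries the median range of a member was 0.52 on the log2 scale, against 0.47 over all genes, and the widest was that of GBP1 at 1.43. Over the 3 MDA-MB-468 libraries it was 1.30 against 1.09, and the widest was that of IRF7 at 3.82. Between the MDA-MB-468 K18+ and K18+K14+ libraries alone it was 0.40 against 0.58. Across the 43 members, which are not independent replicates, Pearson correlations of the levels lay between 0.981 and 0.989 for pairs of HCC70 libraries. The MDA-MB-468 K18+ and K18+K14+ libraries correlated at 0.935, and the library labelled K18+Vim+ correlated with them at 0.719 and 0.788 and with the HCC70 libraries at 0.575 to 0.629. The other MDA-MB-468 libraries correlated with the HCC70 libraries at 0.432 to 0.488. By Spearman correlation over the members these 2 ranges overlapped, at 0.492 to 0.554 for the library labelled K18+Vim+ and 0.462 to 0.521 for the others. Over all genes tested the order was the reverse. There the Pearson correlation with the HCC70 libraries was 0.743 to 0.746 for the library labelled K18+Vim+ and 0.764 to 0.838 for the others.

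The MDA-MB-468 library labelled K18+Vim+ was then compared with the other MDA-MB-468 libraries. In a fit with 3 sets of libraries, 6 members were lower in it, 1 was higher and the other 36 did not pass. Of all genes, 7.02% were lower and 4.42% higher, 11.4% in either direction. The member median was -0.40 against 0.05 over all genes. Under both other libraries lay 27 members (35.3% of all genes) and above both lay 8 (37.6%). This comparison rests on 1 library, which is taken to vary like the others, with populations of 1 line standing in for replicates. The low epithelial markers, the values of SMAD4, RB1 and EGFR and the members' differences meet in the same library, and their part in the result was not tested.

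The members that were lower were 2 transcription factors (IRF7 and IRF1), 1 sensor (DHX58), IFITM3, MX1 and IFI44. IRF7 stood at 3.50 FPKM in that library against 28.2 and 62.7 FPKM, a log2 difference of -3.26 ± 0.51 (limma adjusted p = 0.00836). IFITM3 stood at 21.7 against 167 and 208 FPKM, a difference of -3.05 ± 0.40 (limma adjusted p = 0.00434). Both also stood under every HCC70 library. IFI44 stood at 1.38 against 13.3 and 14.1 FPKM (-2.62 ± 0.36, limma adjusted p = 0.00524), and IRF1, the interferon gamma-responsive factor, at 1.53 against 10.3 and 7.04 FPKM (-1.91 ± 0.40, limma adjusted p = 0.0242). MX1 (-1.67 ± 0.37) and DHX58 (-1.55 ± 0.38) were lower with limma adjusted p-values of 0.0318 and 0.042. IFI27 was higher, at 9.00 FPKM against 0.769 and 0.491 FPKM, a difference of 2.62 ± 0.42 (limma adjusted p = 0.00876), and remained far under the 692 FPKM of its lowest HCC70 library. The next largest positive differences, 1.58 for IFITM2, 1.46 for IFIT5 and 1.27 for HERC5, did not pass.

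Of the 30 pathway genes tested, 3 were lower in that library and 0 were higher (limma, adjusted p under 0.05), beside the 7.02% and 4.42% of all genes given above. UBA7 stood at 2.92 FPKM against 23.8 and 25.6 FPKM, a difference of -2.71 ± 0.33 (limma adjusted p = 0.00323). UBE2L6, the conjugating enzyme that works with UBA7 on ISG15, stood at 4.48 against 23.9 and 27.0 FPKM, a difference of -2.27 ± 0.39 (limma adjusted p = 0.0117). STING1, the adaptor downstream of DNA sensing, stood at 3.14 against 24.9 and 11.9 FPKM, a difference of -2.14 ± 0.48 (limma adjusted p = 0.0307). SOCS3, a feedback inhibitor of JAK kinases, stood at 7.52 against 3.16 and 1.47 FPKM and did not pass (limma adjusted p = 0.118).

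The count in that comparison moved with the libraries used. Leaving out the HCC70 K18+, K18+K14+ or K18+Vim+ library gave 4 members in each case, with 6.3%, 7.19% and 7.83% of all genes. Leaving out the MDA-MB-468 K18+ library gave 11, with 22.6% of all genes, and leaving out the MDA-MB-468 K18+K14+ library gave 9, with 12.2%. Within the 3 MDA-MB-468 libraries alone 2 passed, IFITM3 lower and IFI27 higher, with 3.35% of all genes.

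**Figure D5:**
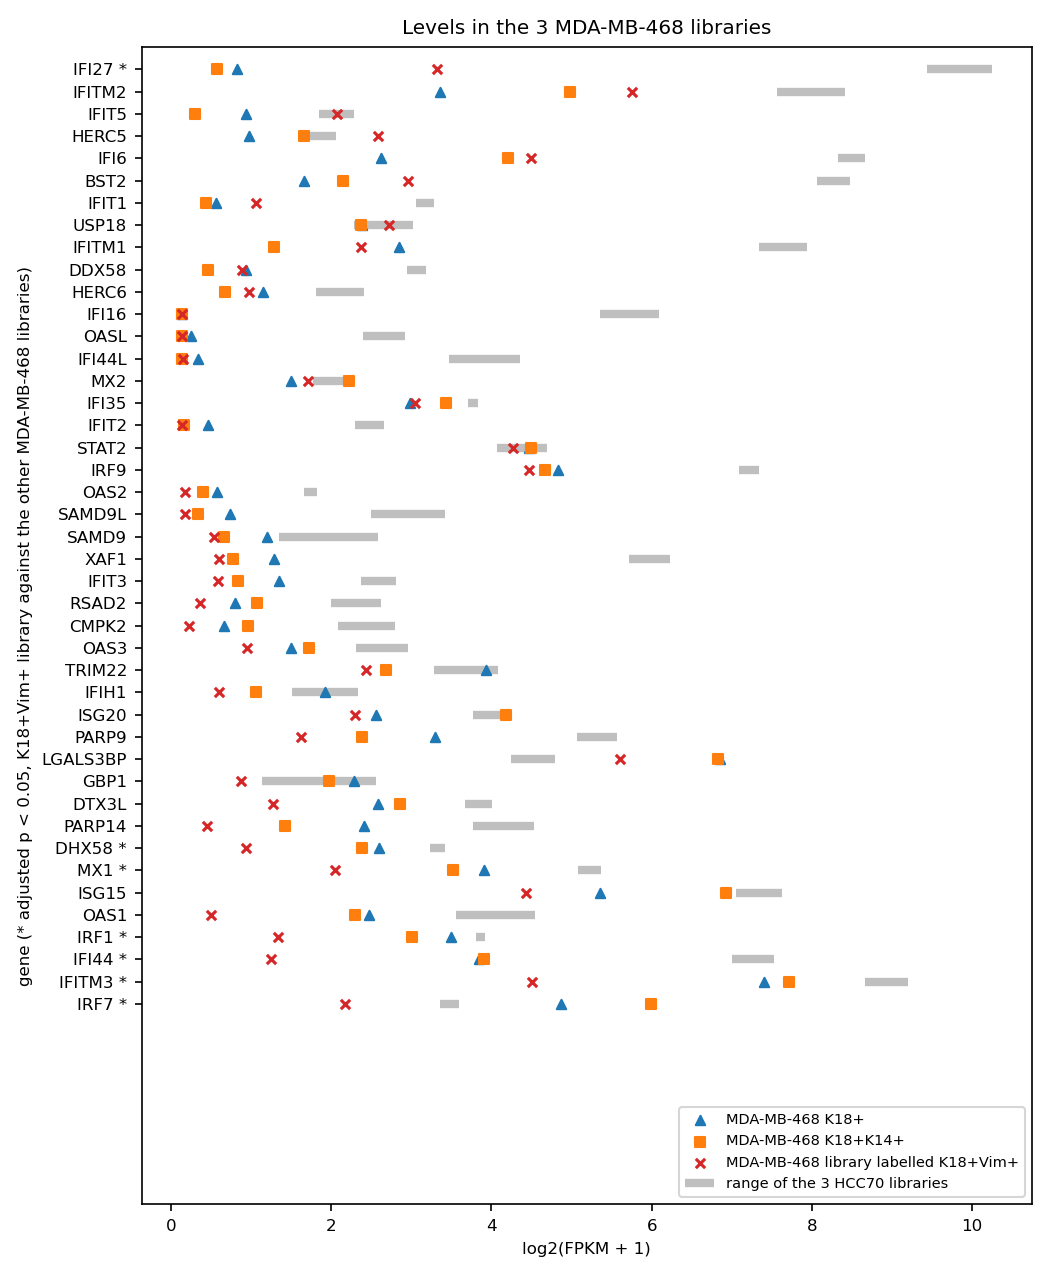
Level of the 43 genes (vertical axis, ordered by the difference of the library labelled K18+Vim+ from the other MDA-MB-468 libraries) on the log2(FPKM + 1) scale (horizontal axis). Symbols are the 3 MDA-MB-468 libraries, grey bars the range of the 3 HCC70 libraries, and asterisks mark the 7 genes with a limma adjusted p under 0.05; the crosses lie left of both other symbols for 27 genes and right of both for 8.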

How the data were processed

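Levels were taken as FPKM from the 1 table the authors deposited, which lists Entrez Gene IDs against the 6 libraries. Per the labels' protocols, RNA was recovered from methanol-fixed, sorted cells with a kit for fixed tissue. Reads were aligned with TopHat2 to GRCh37, per the submitters' processing notes. What counted them, with which annotation and whether by strand, is not given in the sources used here. Depth per library is unknown, since the table has FPKM alone, and intervals for counting error are therefore not printed. The lowest value listed is 0.1 FPKM, a floor that says nothing of the level beneath it.

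The table has 18807 lines, of which 7 had a blank and were dropped. Another 5 repeated an ID, and of each such pair the one with the higher mean was used. Names and promoter stretches come from RefSeq tables of GRCh38.p14, a build other than that of the reads. Promoter entries were not used for DHX58, IFIT2, IFITM2, IRF7, MX2, OAS2, OASL, TRIM22 and USP18.

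Genes that averaged 1 FPKM or more were fitted as log2(FPKM + 1) with limma 3.58.1 in R 4.3.3 (lmFit, eBayes with trend), with p-values adjusted by Benjamini-Hochberg over the 12454 genes of a comparison at a threshold of 0.05. Lines and populations were terms of 1 fit, which pairs populations by the line in the labels and leaves 2 residual degrees of freedom. The MDA-MB-468 library labelled K18+Vim+ was tested in a fit of 3 sets (HCC70, the other MDA-MB-468 libraries, that library), which leaves 3. The fits were also run on simulated data, with independent noise around each gene's mean and set changes added. Those data held no other difference between lines or populations, so they cannot show that the calls here are sound. Tables and figures used Python 3.11.15, pandas 2.3.3, numpy 2.4.6 and matplotlib 3.10.9.

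The members, the pathway list and the marker lists were chosen with earlier results of these data known. Named in full were members past the threshold (up to 20, by smallest adjusted p), the 4 per direction with the largest difference in each comparison and the 5 with the highest mean. Of the pathway list, genes that passed were named, with the 2 per direction with the largest difference between the lines, and IFNAR1, IFNAR2, JAK1, TYK2 and IRF3. No pathway gene was named for the population comparisons. Of the pathway genes counted, 1 is not reported here. Other members are given by their ranges, and a pathway gene outside these was named after its values were seen. UBA7 and UBE2L6 stand in the pathway list under feedback inhibitors, although they are ISG15-conjugating enzymes. Alternatives were other pseudocounts, filters, scaling, no trend, no block, fewer libraries and leaving out each library.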

Additional observations from a re-analysis of the deposited data

Results flagged for a closer look

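Several members differed between populations in opposite directions in HCC70 and MDA-MB-468, by at least 0.5 on the log2(FPKM + 1) scale each way. With 1 library per line and population, the difference between the lines was not tested, and each MDA-MB-468 value rests on the library labelled K18+Vim+. Between K18+Vim+ and K18+ cells LGALS3BP differed by 0.55 in HCC70 and by -1.24 in MDA-MB-468, and ISG15 by 0.57 and -0.92. Between K18+Vim+ and K18+K14+ cells, which share the K18+Vim+ libraries with the comparison before, IFITM3 differed by 0.54 in HCC70 and by -3.20 in MDA-MB-468, and OAS1 by 0.81 and -1.80. In the same comparison GBP1 differed by 1.21 and -1.10, LGALS3BP by 0.52 and -1.22, and RSAD2 by 0.62 and -0.70.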

How the results depend on the processing

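The number of libraries limits the precision, since the fits leave 2 or 3 residual degrees of freedom. A fit with a library left out leaves fewer, and the depth is unknown. Of the 23 members that passed between the lines, 20 passed under every setting with all libraries other than no filter, and 9 passed whichever library was left out. Without a filter on low values 0 members passed by limma, as did 0 of 18795 genes. In that fit 30 members had an unadjusted limma p under 0.05, and the share of all genes at that level was not counted. A minimum of 5 FPKM, which tests 26 members, gave 15, with 1215 of 8830 genes. Leaving out each library gave 9 to 30 members, with 1.65% to 28.7% of all genes. The member median relative to all genes was -2.44 with a pseudocount of 0.1, -0.87 with 5, and -2.19 to -1.36 with a library left out. Without the replicate block (the pairing of populations by line) the line alone gave 26 members, all 23 among them, with 1875 of 12454 genes. The 3 population comparisons gave 0 members each, so that leaving out the block ended no call.

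For K18+K14+ against K18+ the relative median was -0.184 without the filter and -0.277 to 0.184 with a library left out, where it changed sign without the HCC70 K18+K14+ library. For K18+Vim+ against K18+ it was -0.478 with a pseudocount of 0.1 and -0.565 to 0.131 with a library left out, where it changed sign without the MDA-MB-468 library labelled K18+Vim+, and 0 to 10 members passed. For K18+Vim+ against K18+K14+ 0 to 8 members passed, with relative medians of -0.418 to 0.160. For the MDA-MB-468 library labelled K18+Vim+ against its line, 3 members passed with a pseudocount of 5, 11 with quantile normalization, 2 within the MDA-MB-468 libraries alone, and 4 to 11 with a library left out. Its relative median was -0.451, and it was -1.06 and -0.177 with pseudocounts of 0.1 and 5, -0.380 without the filter, -0.998 with a minimum of 5 FPKM, -0.585 with quantile normalization, and -0.451 to -0.369 with a library left out. Of its 7 members, IFITM3 alone passed under every setting. Leaving that library out gives this comparison no value. No member that passed changed direction under any setting, over 314 values for the lines and 84 for that library. Other than by fewer genes or libraries, the cause of these shifts was not tested.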
